A study of Homo sapiens with 8 samples.

Results

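RNA levels of 9 genes of plasminogen activation and matrix proteolysis were followed in LM2 cells treated with the kinase inhibitor Ponatinib or depleted of the ABL kinases. The genes are PLAU and PLAT, which encode the plasminogen activators uPA and tPA, the uPA receptor gene PLAUR, the inhibitor gene SERPINE2, the metalloproteinase genes MMP14, MMP2 and ADAM19, and the inhibitor genes TIMP1 and TIMP2. They were chosen by name, with earlier results of these data known, and each symbol matched 1 of the 58688 gene rows of the count files. The LM2 line was derived from the triple negative human breast cancer line MDA-MB-231 by its spread to the lung, and every sample came from this line. DMSO-treated cells and cells given 1 µmol/L Ponatinib for 6 h have 2 samples each. A second set of LM2 cells carried lentiviral shRNAs, with a 48 h incubation with virus and puromycin selection, and has 1 sample each for a scrambled hairpin (shCtrl), for hairpins against ABL1 (ABL1 shRNA) or ABL2 (ABL2 shRNA), and for both of these together. The methods name 1 hairpin for each ABL gene, the transduced cells are a selected population, and the 3 knockdowns share the single shCtrl sample. The comparisons ask how the 9 genes changed after Ponatinib and whether they changed when ABL1, ABL2 or both were lowered, since ABL is a known target of the drug.

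Plasminogen activators cut the abundant proenzyme plasminogen into plasmin, a serine protease that degrades fibrin and matrix glycoproteins and activates other proenzymes. The uPA receptor holds uPA at the cell surface, and serpins such as protease nexin-1, the SERPINE2 product, trap the activators in inactive complexes. MT1-MMP, the product of MMP14, cuts collagen at the membrane and activates proMMP-2 in a complex with TIMP-2, so TIMP-2 takes part in that activation at low levels and blocks the enzyme at higher levels. These systems are studied in breast cancer for their part in invasion, and PLAU is among the proteases measured in tumors of this disease.

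Total counts on genes ranged from 7568934 to 13010896 per sample, and 3 counts, taken as the limit of detection, equal 0.231 to 0.396 CPM, the counts of a sample scaled to its total. Of the markers of this line, the mesenchymal gene VIM was between 1880 and 3145 normalized CPM, PGR was at 0 counts in all 8 samples, ESR1 had 3 to 11 counts, CDH1 had 0 to 23, GATA3 had 74 to 99, EPCAM had 61 to 125, and ERBB2 was at 53.7 to 67.0 normalized CPM. Of the leukocyte and endothelial markers, PTPRC, CD3E, CD68 and CDH5 had at most 4 counts, whereas PECAM1 had 18 to 499. The targeted genes were lower where the labels say so: ABL1 RNA was 0.384 times the shCtrl level in cells with its own hairpin and 0.576 times in the double knockdown, and ABL2 RNA was 0.396 and 0.625 times the shCtrl level in the matching samples. Comparisons were made only within a set, because the drug and shRNA sets differ for other reasons too: in 68 genes, all 4 drug-set samples had 100 counts or more and all 4 shRNA samples had 0. As these are bulk samples, fewer cells with a transcript and less RNA per cell cannot be told apart.

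Among the 9 genes, PLAU had the highest level in DMSO when counts were divided by exon length. Its mean TPM (counts divided by GENCODE exon length, then scaled to a common total) was 698, followed by TIMP1 at 524, MMP14 at 344, TIMP2 at 282, PLAUR at 94.3, SERPINE2 at 39.5, PLAT at 30.7, ADAM19 at 20.6 and MMP2 at 2.69 (n = 2). No neighbors in this order overlapped between their 2 DMSO values. The order was different in shCtrl, where MMP14 came first at 621 TPM, then TIMP2 at 604, TIMP1 at 550.3 and PLAU at 414. MMP2 was at 78.9 TPM in shCtrl and at 2.12 and 3.26 TPM in the 2 DMSO samples, values that come from different sets and were not tested against each other.

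**Figure D1:**
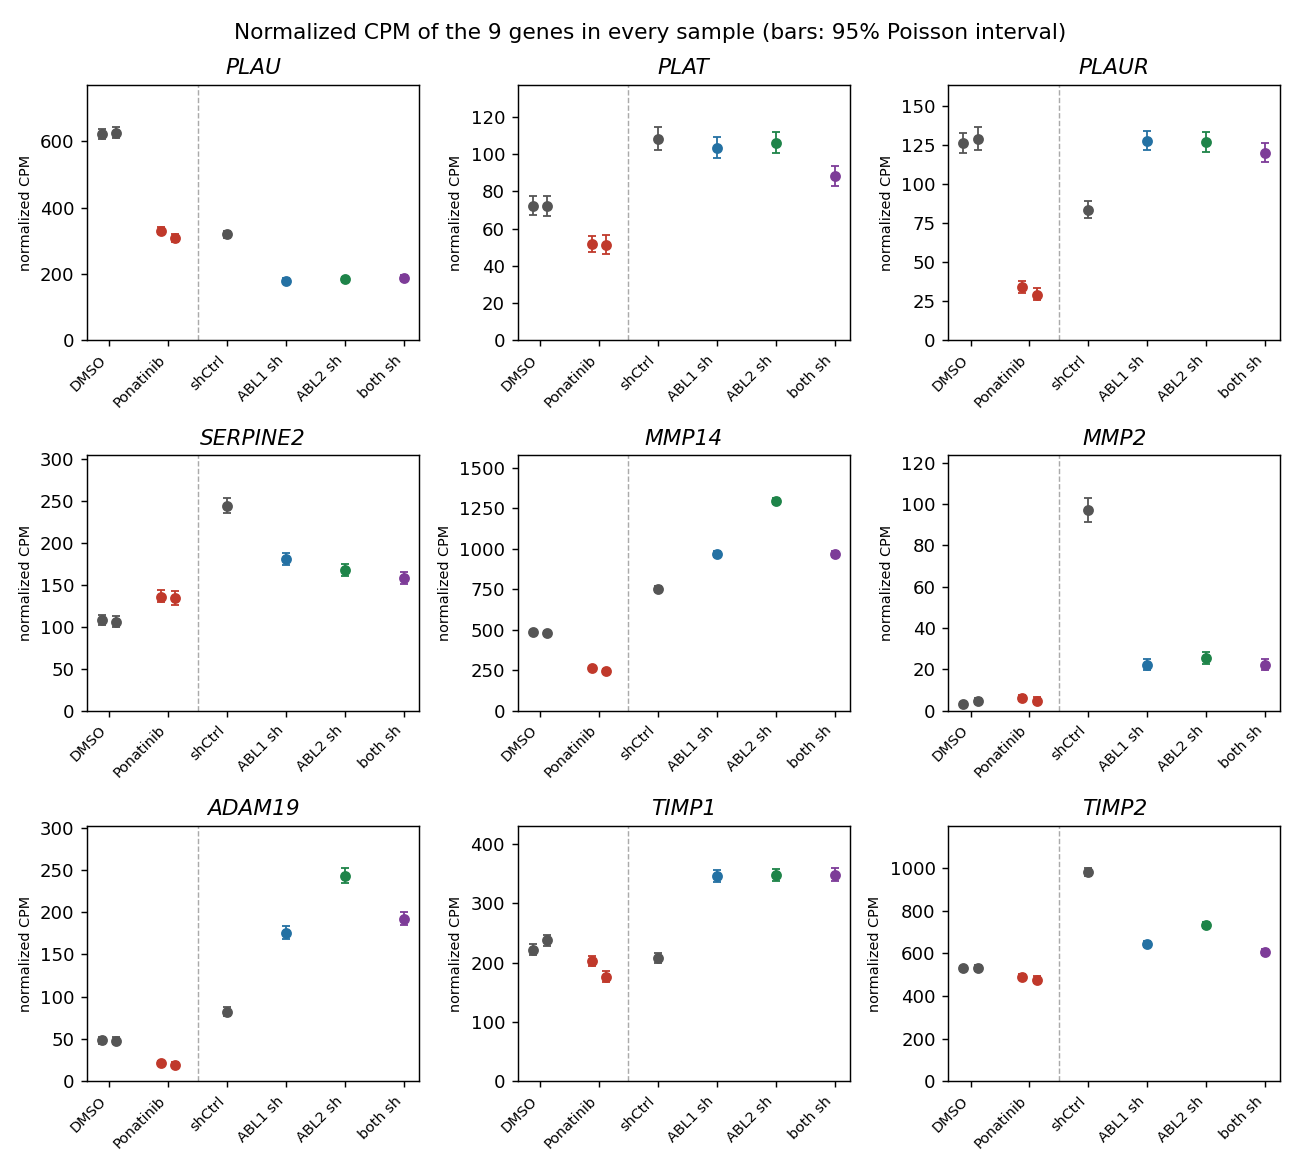
Normalized CPM of the 9 genes in each of the 8 samples, 1 panel per gene, with the vertical axis starting at 0 and bars giving the 95% Poisson interval of the count; the dashed line divides 2 sets normalized separately. PLAUR, ADAM19, PLAU and MMP14 sit lower in both Ponatinib samples than in both DMSO samples, and for every gene shCtrl lies outside the range of the 3 knockdowns.

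The sequence upstream of the start site is shown for 3 of the genes that were down-regulated by Ponatinib, because these windows hold short motifs of factors known at protease promoters. RefSeq entries on GRCh38.p14 were matched for ADAM19, MMP14, PLAU, PLAUR, SERPINE2 and TIMP1, and the table used here has none for MMP2 and TIMP2. PLAT was not searched here. Over the 250 bases before the start, both strands were searched for AP-1 (TGANTCA), the PEA3-type ETS motif (AGGAAG), the GC box (GGGCGG), the TATA box (TATAAA) and the TEAD motif (GGAATG), the ETS and TEAD motifs share the letters GGAA, and no matches found here overlap. Capitals mark matches in the sequences, which run 5′ to 3′ on the strand of the gene. For PLAUR, 30 bases around its AP-1 match are given (chr19:43670337-43670366, minus strand), since GENCODE places the window in a 5′ exon of a longer transcript. For PLAU (chr10:73910882-73911103, plus strand) and MMP14 (chr14:22836335-22836559, plus strand) the bases before the first annotated exon in the window are given.
PLAUR: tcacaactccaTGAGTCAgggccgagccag
PLAU: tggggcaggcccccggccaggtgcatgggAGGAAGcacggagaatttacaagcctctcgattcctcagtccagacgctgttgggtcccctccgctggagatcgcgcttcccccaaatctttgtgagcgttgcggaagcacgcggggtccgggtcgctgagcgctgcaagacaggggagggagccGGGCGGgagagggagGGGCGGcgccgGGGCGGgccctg
MMP14: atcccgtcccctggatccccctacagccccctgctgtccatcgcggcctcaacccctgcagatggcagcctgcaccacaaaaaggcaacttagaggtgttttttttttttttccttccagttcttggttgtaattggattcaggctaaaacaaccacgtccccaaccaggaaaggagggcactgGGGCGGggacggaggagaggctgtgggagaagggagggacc
PLAUR was the 1 gene of the 6 with an AP-1 match, 186 to 180 bases before its start, and 6.57% of all 35116 promoter windows have one. PLAU, PLAUR and TIMP1 held the ETS motif, which 28.71% of the windows have, at 221, 15 and 87 bases before their starts. GC boxes were found in PLAU (3), SERPINE2 (2), TIMP1 (2) and MMP14 (1), against 42.64% of the windows with at least 1. ADAM19, whose window is 76.4% G and C, had no match, and none of the 6 had a TATA box (10.72% of windows) or a TEAD motif (11.89%). The start site used for the SERPINE2 window lies 646 bases from the start of its reference transcript. That window lies within the annotated span of the gene, so its GC boxes may not lie before the reference start. These matches describe the letters and say nothing of binding.

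After Ponatinib, the uPA receptor gene PLAUR fell 4.01-fold, ADAM19 2.35-fold, PLAU 1.96-fold and MMP14 1.90-fold, while SERPINE2 rose 1.26-fold. Of the 9 genes, 7 passed an adjusted p of 0.05 in the edgeR quasi-likelihood test, adjusted by the Benjamini-Hochberg method over all 16031 genes tested. Of these, 6 fell and 1 rose. In this comparison 30.7% of all genes tested were called, 15.7% as lower and 15.0% as higher. As the 9 genes were chosen with earlier results of these data known, setting them beside shares of all genes is a description. The count of all genes called was 4917, and it was 2800 without DMSO replicate 1 and 3242 without DMSO replicate 2. All 9 genes passed the filter on low counts. By the rule of fold change over 2 with an unadjusted P under 0.05, 2 of the 9 were DEGs, PLAUR and ADAM19, against 5.48% of all genes, and both were lower, as were 2.29% of all genes. The 2 DMSO and 2 Ponatinib values did not overlap for any of the 9, which was so for 64.9% of all genes. An exact permutation test of 2 against 2 samples cannot give a two-sided p below 0.333, and whether the repeats came from separate cultures is not stated, so the p-values measure the spread between these samples. The mitochondrial share of counts moved with the treatment, at 2.98% and 3.21% in DMSO and 3.74% and 3.72% with Ponatinib, and its part in these results was not tested.

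**Figure D2:**
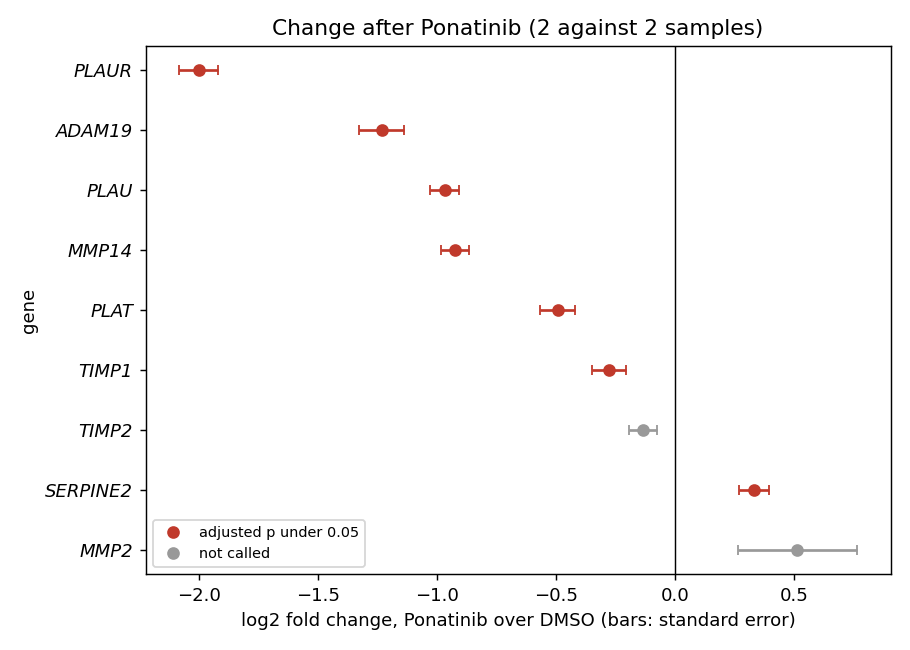
Log2 fold change of each gene, Ponatinib over DMSO (n = 2 each), with a standard error derived from the F statistic of the edgeR test. Red points passed an adjusted p of 0.05 and gray points did not. PLAUR is lowest at -2.00, 5 more red points are below 0, SERPINE2 at 0.33 is the red point above 0, and TIMP2 and MMP2 are gray.

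PLAU (ENSG00000122861.12, chr10:73909177-73917496), the uPA gene, had 622 and 626 normalized CPM in the DMSO samples and 330.0 and 307 in the Ponatinib samples. Both treated values were well below both control values, far outside the spread within either pair. Its mean went from 624 ± 2.37 to 319 ± 16.1 (SD, n = 2 each), with a change of -0.97 on the log2 scale (standard error, SE, 0.06, edgeR adjusted p = 1.5e-08). The 1.96-fold drop fell just short of a 2-fold change. GENCODE places exons of C10orf55, on the opposite strand, over 31.0% of the PLAU exon bases, and whether strand was used in counting is not stated, so reads of the pair cannot be told apart there. C10orf55 itself had 15 to 37 counts per sample, against at least 2361 for PLAU in the DMSO and Ponatinib samples.

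PLAT (ENSG00000104368.14, chr8:42174718-42207709), the tPA gene, changed less than PLAU. It was at 72.4 and 72.1 normalized CPM in DMSO and at 51.4 and 51.3 with Ponatinib. Replicates of either group nearly coincided, and the groups were well apart. The log2 fold change was -0.49 (SE 0.07, edgeR adjusted p = 0.00012).

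PLAUR (ENSG00000011422.8, chr19:43646095-43670547), the gene of the GPI-anchored uPA receptor, was down-regulated more than any other of the 9. Its level was 126 and 129 normalized CPM in DMSO and 33.9 and 29.2 with Ponatinib. The lower DMSO value was still more than 3 times the higher Ponatinib value. The mean went from 127 ± 1.96 to 31.5 ± 3.32 (SD, n = 2 each), a 4.01-fold drop with a change of -2.00 on the log2 scale (SE 0.08, edgeR adjusted p = 1.2e-10). The TPM ratio of PLAU to PLAUR within a sample was 7.47 and 7.35 in DMSO and 14.7 and 15.9 with Ponatinib.

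SERPINE2 (ENSG00000135919.9, chr2:223975045-224039318), whose product inhibits uPA, tPA and thrombin, was the gene that rose. It had 108 and 106 normalized CPM in DMSO and 136 and 134 with Ponatinib. The rise was small, yet larger than the gap within either pair. Its log2 fold change was 0.33 (SE 0.06, edgeR adjusted p = 0.00099). The TPM ratio of PLAU to SERPINE2 was 17.5 and 17.9 in DMSO and 7.37 and 6.98 with Ponatinib.

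MMP14 (ENSG00000157227.9, chr14:22836560-22849041), which encodes the membrane collagenase MT1-MMP, was at 484 and 479.8 normalized CPM in DMSO and at 260.4 and 247 with Ponatinib. As with PLAU, the treated values were close together and far below the controls. The mean went from 482 ± 2.87 to 254 ± 9.74 (SD, n = 2 each), a 1.90-fold drop (log2 fold change -0.93, SE 0.06, edgeR adjusted p = 2.3e-08). MMP2 (ENSG00000087245.9, chr16:55389700-55506691), the gelatinase that MT1-MMP activates, was close to silent in this set, at 3.01 and 4.66 normalized CPM in DMSO and 5.99 and 4.68 with Ponatinib, or 34 to 63 counts. The second DMSO and second Ponatinib values nearly met, and the log2 fold change of 0.51 (SE 0.25, edgeR adjusted p = 0.14) was not called. Leaving out 1 sample leaves 1 in a group, and this changed the MMP2 estimate and whether MMP2 was called. Its log2 fold change was 0.66 without Ponatinib replicate 2 and 0.84 without DMSO replicate 2. Without DMSO replicate 1 or Ponatinib replicate 1 it was 0.21 and 0.32.

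ADAM19 (ENSG00000135074.12, chr5:157395534-157575775), a membrane-anchored disintegrin metalloproteinase that sheds neuregulin, had 48.2 and 48.0 normalized CPM in DMSO and 21.3 and 19.4 with Ponatinib. Both treated samples were far below both controls. The 2.35-fold drop gave with a change of -1.23 on the log2 scale (SE 0.10, edgeR adjusted p = 1.7e-07).

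The inhibitor genes TIMP1 and TIMP2 moved little. TIMP1 (ENSG00000102265.8, chrX:47582408-47586789), a soluble inhibitor of most MMPs that is weak on MT1-MMP, was at 222 and 237 normalized CPM in DMSO and at 202 and 176 with Ponatinib. The groups did not overlap, but the Ponatinib samples differed more from each other than the lower DMSO value did from the higher Ponatinib value. It was called as lower (log2 fold change -0.28, SE 0.07, edgeR adjusted p = 0.009), and without DMSO replicate 2 this call was lost (-0.23, edgeR adjusted p = 0.15). TIMP2 (ENSG00000035862.9, chr17:78852977-78925387), the inhibitor that also links proMMP-2 to MT1-MMP, was at 529.5 and 533 normalized CPM in DMSO and at 492 and 477 with Ponatinib. The groups did not overlap, but the change of -8.86% was not called (log2 fold change -0.13, SE 0.06, edgeR adjusted p = 0.091). Without Ponatinib replicate 1 or 2 its adjusted p was 0.0075 and 0.037, and without DMSO replicate 1 or 2 it was 0.4 and 0.43. In GENCODE, exons of CEP295NL, on the same strand, and of a gene on the opposite strand cover 9.52% of the TIMP2 exon bases. Reads of TIMP2 and CEP295NL cannot be told apart where they overlap, and CEP295NL itself had 2 to 10 counts per sample. The TPM ratio of MMP14 to TIMP2 was 1.23 and 1.21 in DMSO and 0.711 and 0.695 with Ponatinib, and that of MMP14 to TIMP1 was 0.682 and 0.633 in DMSO and 0.403 and 0.439 with Ponatinib.

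The wider pathway was read from 6 lists with 104 genes, also chosen with earlier results known, of which 67 could be tested after Ponatinib. In these lists 29 genes were called, 17 lower and 12 higher, with a median log2 fold change of -0.08 against -0.0047 over all genes tested. These counts include the 9 members. Without the members, 22 of 58 were called, 11 lower and 11 higher, with a median of -0.03. The shares of all genes tested are those given above, 30.7% called, 15.7% lower and 15.0% higher. Of the 29, 4 passed the filter on low counts through only the group in which they were higher (SERPINB2, SERPINA5, ADAMTS9 and PCSK6), so the filter bears on their direction, and without such genes 25 of 59 were called, 15 lower and 10 higher. Of the 19 plasminogen activation genes, 14 were tested and 10 called (median log2 fold change -0.14), or 8 of 12 without genes of that kind, 5 lower and 3 higher. SERPINB2, which encodes an inhibitor of uPA, had 32 and 40 counts in DMSO and 9 and 13 with Ponatinib, and SERPINA5, the protein C inhibitor gene, had 4 in each DMSO sample and 17 and 9 with Ponatinib. These counts are given as a description, without their test. Also called in this list were LRP1 (0.48), the clearance receptor for activator and inhibitor complexes, MRC2 (0.42), a collagen receptor that associates with the uPA receptor, and ENO1 (-0.17), a glycolytic enzyme that can bind plasminogen.

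**Figure D3:**
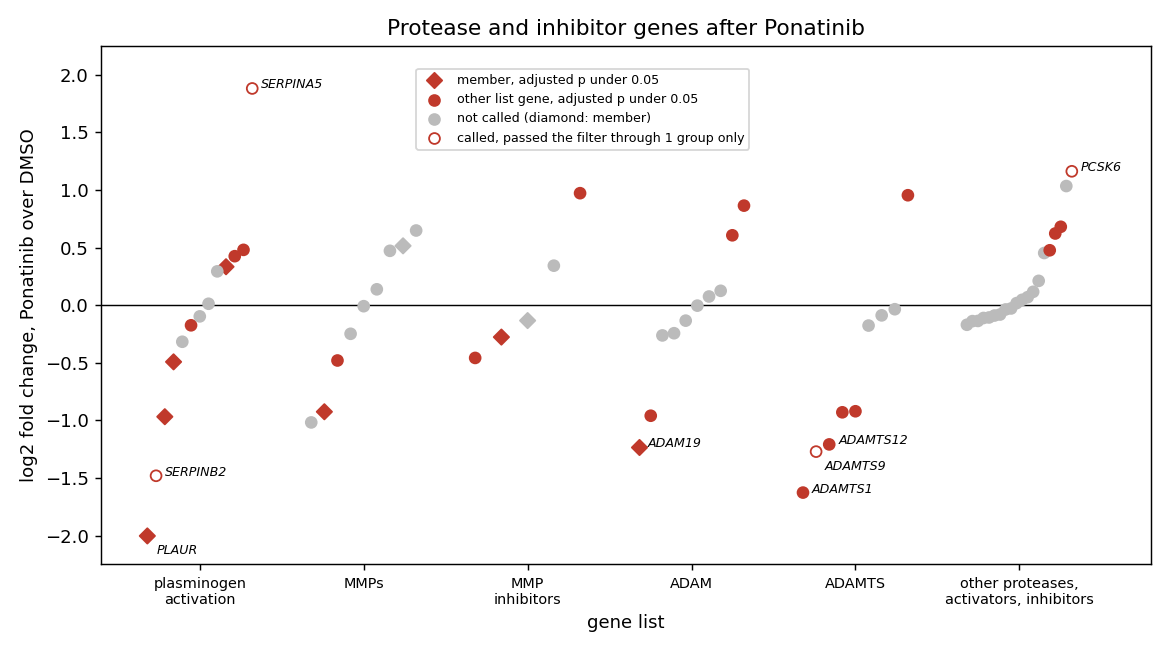
Log2 fold change after Ponatinib of the tested genes of 6 lists that are reported here, in rank order within a list; diamonds are the 9 members, red marks an adjusted p under 0.05, hollow red circles are the 4 called genes that passed the count filter through 1 group only, and called genes changed more than 2-fold carry their names. PLAUR lies lowest, and 4 of the 5 filled red ADAMTS points lie below 0.

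Among the 23 MMP genes, 9 were tested and 2 called, MMP14 and the interstitial collagenase gene MMP1 (log2 fold change -0.48, edgeR adjusted p = 8e-05), with a list median of -0.01. All 5 metalloproteinase inhibitors were tested and 3 were called, with TIMP1 and the matrix-bound inhibitor gene TIMP3 (-0.46) lower and TIMP4 (0.97) higher, and a list median of -0.13. Of the 14 ADAM genes, 10 were tested and 4 called. ADAM19 and ADAM12 (-0.96) were lower, while ADAM17 (0.61), the sheddase of TNF and EGFR ligands, and ADAM22 (0.86) were higher, and the list median was -0.07. The ADAMTS list, secreted relatives that cut proteoglycans and procollagens, had 9 of 19 genes tested and 6 called. Without ADAMTS9, which passed the filter only through DMSO, 5 of 8 were called, 4 lower and 1 higher. The list median of -0.92 includes ADAMTS9 and was not taken without that gene. ADAMTS1, which cleaves aggrecan and versican, fell 3.09-fold (log2 fold change -1.63, edgeR adjusted p = 2.1e-07). ADAMTS12 was also lower (-1.21, edgeR adjusted p = 2.1e-06), and ADAMTS9 had 9 to 28 counts. Of 24 other proteases, activators and inhibitors, 20 were tested and 4 called, or 3 of 17 without genes of that kind. These 3 were higher: the lysosomal protease gene CTSD (0.62), HTRA1 (0.68) and the procollagen C-proteinase gene BMP1 (0.48). The proprotein convertase gene PCSK6 had 7 and 9 counts in DMSO and 15 and 16 with Ponatinib.

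In the ABL knockdowns, MMP2 was about 4-fold below shCtrl and ADAM19 more than 2-fold above it, in each of the 3 knockdown samples. With 1 sample per group there is no test, and each value below is a ratio of normalized CPM to shCtrl with an exact 95% binomial interval that covers counting error only. Past 2-fold were 2 of the 9 genes in each knockdown, against 8.67%, 7.64% and 7.74% of 16172 genes in the ABL1, ABL2 and double knockdowns. The same 2 genes, MMP2 and ADAM19, were past 2-fold the same way in all 3, against 2.32% of genes. PLAU, PLAT, SERPINE2, MMP2 and TIMP2 had their highest value in shCtrl (PLAT within counting error of both single knockdowns), and PLAUR, MMP14, ADAM19 and TIMP1 had their lowest there. The 3 knockdowns share that 1 library, and shCtrl lay outside their range for 60.3% of the 10076 genes that reached 100 counts in all 4 shRNA samples. For ABL1 shRNA, ABL2 shRNA and both, the share lying outside the range of the other 3 samples was 55.4%, 52.3% and 32.0%. An effect of the hairpins and a property of the shCtrl library cannot be told apart. The double knockdown lowered each target less than its own hairpin alone did. ABL1 RNA was at 0.576 against 0.384 times shCtrl, and ABL2 RNA at 0.625 against 0.396. Values with both hairpins are therefore not those of a deeper depletion of either gene.

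**Figure D4:**
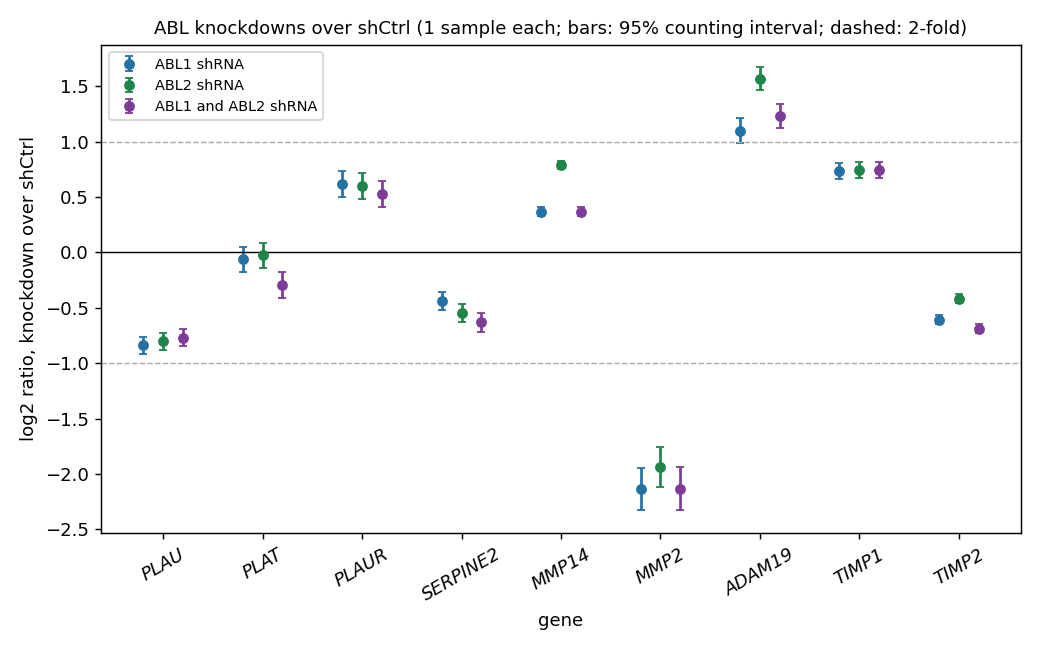
Log2 ratio of normalized CPM, each knockdown over the single shCtrl sample, with bars giving the 95% counting interval and dashed lines at 2-fold. MMP2 lies below the lower line and ADAM19 above the upper line in all 3 knockdowns, although the ADAM19 interval with ABL1 shRNA reaches across the line.

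PLAU was at 319.5 normalized CPM in shCtrl and at 179, 183 and 187 in the ABL1, ABL2 and double knockdowns. The 3 knockdowns were close together, their neighboring intervals including 1, and all were below shCtrl. Their ratios were 0.559 (0.530 to 0.589), 0.573 (0.543 to 0.604) and 0.586 (0.556 to 0.618). PLAT was at 108, 104, 106 and 88.2 normalized CPM in the same order. It was near shCtrl in both single knockdowns, with ratios of 0.957 (0.885 to 1.03) and 0.982 (0.908 to 1.06), and lower with both hairpins, at 0.815 (0.750 to 0.886).

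The receptor gene PLAUR went the other way from PLAU. It was at 83.3 normalized CPM in shCtrl and at 128, 126 and 119.9 in the ABL1, ABL2 and double knockdowns, so that all 3 knockdowns were above shCtrl and did not differ from their neighbors beyond counting error. The ratios were 1.53 (1.41 to 1.66), 1.52 (1.40 to 1.65) and 1.44 (1.32 to 1.56). The TPM ratio of PLAU to PLAUR was 5.79 in shCtrl and 2.12, 2.19 and 2.36 in the knockdowns. SERPINE2 was at 244 normalized CPM in shCtrl and at 180.5, 167 and 158, lowest with both hairpins. Its ratios were 0.738, 0.684 and 0.645, and the value with both overlapped that with ABL2 shRNA in counting error (ratio 1.06, 0.996 to 1.13). The TPM ratio of PLAU to SERPINE2 was 3.97 in shCtrl and 3.005, 3.32 and 3.60 in the knockdowns.

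MMP14 was at 750.2 normalized CPM in shCtrl and at 968, 1293 and 968 with ABL1 shRNA, ABL2 shRNA and both. ABL2 shRNA alone gave the highest value, 1.34 times that with both hairpins (1.30 to 1.37), and the other knockdowns were level with each other (ratio 1.00, 0.975 to 1.03). Over shCtrl the ratios were 1.29 (1.25 to 1.33), 1.72 (1.68 to 1.77) and 1.29 (1.25 to 1.33). MMP2 was at 97.1 normalized CPM in shCtrl, or 1103 counts, and at 22.1, 25.4 and 22.1 in the knockdowns, or 286, 319 and 269 counts. The 3 knockdowns were within counting error of their neighbors and shCtrl stood alone. The shCtrl level was 4.40 (3.86 to 5.02), 3.82 (3.37 to 4.34) and 4.38 (3.83 to 5.03) times the knockdown level. The genes of the activating and the activated enzyme moved apart, with MMP14 above and MMP2 below shCtrl.

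ADAM19 was at 82.0 normalized CPM in shCtrl and at 176, 243 and 192 with ABL1 shRNA, ABL2 shRNA and both. As for MMP14, ABL2 shRNA alone gave the highest value, and each step in the order of the 4 samples exceeded counting error. The ratios to shCtrl were 2.14 (1.98 to 2.32), 2.96 (2.75 to 3.19) and 2.35 (2.17 to 2.53). TIMP1 was at 208 normalized CPM in shCtrl and at 346, 348 and 348, the closest agreement among the knockdowns of any of the 9 genes, with the highest 1.01 times the lowest. Its ratios were 1.66, 1.67 and 1.67. TIMP2 was at 981 normalized CPM in shCtrl and at 644, 733 and 609, below shCtrl in all 3 with ratios of 0.656 (0.638 to 0.675), 0.748 (0.727 to 0.768) and 0.621 (0.602 to 0.639). The TPM ratio of MMP14 to TIMP2 was 1.03 in shCtrl and 2.02, 2.37 and 2.14 in the knockdowns, whereas that of MMP14 to TIMP1 was 1.13 in shCtrl and 0.875, 1.16 and 0.870 in them.

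**Figure D5:**
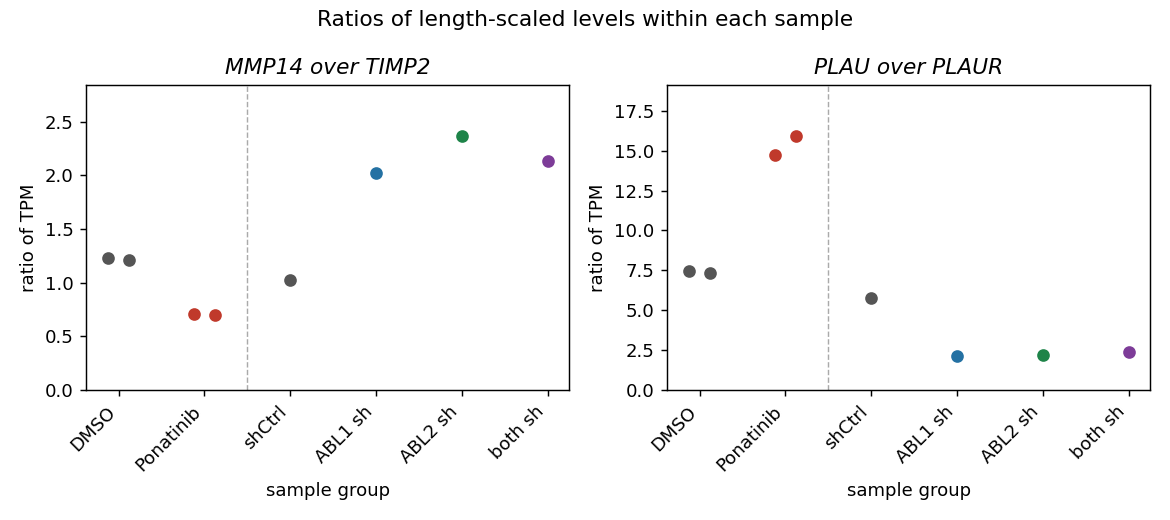
Ratio of TPM within each sample for MMP14 over TIMP2 (left) and PLAU over PLAUR (right), with vertical axes starting at 0, 1 point per sample, and a dashed line between the 2 sets. Both Ponatinib samples are below DMSO for MMP14 over TIMP2 and above DMSO for PLAU over PLAUR, and the 3 knockdowns depart from shCtrl in the opposite direction in both panels, which was not so for PLAU over SERPINE2, lower in both settings, or for MMP14 over TIMP1, lower with Ponatinib and lower or slightly higher in the knockdowns.

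Set side by side, Ponatinib and the knockdowns had the same sign for 3 of the 9 genes and opposite signs in all 3 knockdowns for the other 6. The share of all genes with either pattern was not taken. Signs often agree across the knockdowns, as shCtrl lay outside their range for 60.3% of the genes measured above. Of the 3 with the same sign, TIMP2 was not called after Ponatinib, and PLAT was within counting error of shCtrl in both single knockdowns. PLAU was lower in both settings, with a log2 fold change of -0.97 after Ponatinib and log2 ratios of -0.84, -0.80 and -0.77 in the knockdowns, and PLAT and TIMP2 also had negative values throughout, except that PLAT with ABL2 shRNA was at 0.0178 when scaled by library size alone. PLAUR had -2.00 after Ponatinib and 0.61, 0.60 and 0.52 in the knockdowns, and ADAM19 had -1.23 against 1.10, 1.57 and 1.23. MMP14 and TIMP1 shared this pattern, SERPINE2 and MMP2 had the reverse one, and 5 of these 6 genes were called after Ponatinib, the exception being MMP2. The targeted genes also moved with the drug, ABL2 RNA from 321 ± 20.7 to 158 ± 15.2 normalized CPM (SD, n = 2 each, log2 fold change -1.02, edgeR adjusted p = 8.6e-08) and ABL1 RNA from 164 ± 1.95 to 188 ± 7.80 (0.19, edgeR adjusted p = 0.029). The difference between the settings was not tested, as the sets differ in more than treatment and the knockdowns have no replicates.

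In the 6 lists, 5 of the 76 genes measured in the shRNA set were past 2-fold the same way in all 3 knockdowns, against the 2.32% of all genes given above. Besides MMP2 and ADAM19 these were ADAM12, a meltrin like ADAM19, above shCtrl with 23 counts there and 112, 123 and 93 in the knockdowns, and, below shCtrl, A2M with 16 counts against 1, 3 and 5 and TLL1 with 11 against 3, 0 and 2. The last 3 were named after their values were seen, since 1 or more of their comparisons did not reach 100 counts. A2M and TLL1 entered the measured genes through shCtrl alone, where they are high, so the filter bears on their direction and their counts are a description. Of these 76 genes, 6 were past 2-fold above and 6 below shCtrl with ABL1 shRNA, 9 and 4 with ABL2 shRNA, and 6 and 7 with both, against 8.67%, 7.64% and 7.74% of all genes in either direction, with list medians of the log2 ratio of -0.02, 0.12 and 0.05. A gene could pass the filter on low counts through any single shRNA sample. These tallies and shares therefore include genes, such as A2M and TLL1, measured only through a sample where they were high. They were not taken without such genes and are a description.

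Genes with the most similar pattern were found by Euclidean distance over the 4 log2 fold changes (Ponatinib and 3 knockdowns) among the 8961 genes that reached 100 counts in all 8 samples. The 3 nearest to PLAUR were MYEOV (distance 0.293), DNMBP (0.328) and the ephrin receptor gene EPHA2 (0.335), which had a log2 fold change of -1.94 after Ponatinib and log2 ratios of 0.71, 0.50 and 0.82 in the knockdowns. MMP14 was nearest to CDCP1 (0.247), S100A16 (0.303) and CSGALNACT2 (0.323), and PLAU to NABP1 (0.240), TRAM2 (0.280) and ARHGEF28 (0.286). The nearest genes to ADAM19 were farther away, CD82 (0.688), the EGFR ligand gene TGFA (0.713) and MARCKSL1 (0.714). MMP2, itself under 100 counts in the DMSO and Ponatinib samples, was farthest from its nearest genes, LIMCH1 (1.07), TGFB2 (1.13) and NEK6 (1.21). For the other members the nearest were BZW1P2, SRF and NAF1 for PLAT (0.110 to 0.136), FBXL4, FTH1P10 and MINDY2 for SERPINE2 (0.0832 to 0.164), NUDT1, APMAP and MAPK13 for TIMP1 (0.159 to 0.167) and MAML2 and NR3C2 for TIMP2 (0.0951 and 0.100). These distances are over 4 comparisons, of which 3 share shCtrl, and are a description. They are not scaled to the size of the changes, so genes with larger changes can lie farther from their nearest genes.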

How the data were processed

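RNA from 8 LM2 samples was sequenced from NEBNext Ultra libraries on an Illumina HiSeq system. The authors mapped reads to hg38 with TopHat and deposited raw read counts per gene from HTSeq 0.6.0, 1 file per sample and not normalized. The annotation and strand setting are not given in the sources used here. The shRNA files end in counter summary rows (15.66 to 16.018% of all counts), which were left out. In 2 shRNA files (shCtrl and ABL1 shRNA) the header cell gives the condition of the other file. ABL1 is low in the sample labelled ABL1 shRNA, and samples were used as labelled.

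The 9 genes and the lists were chosen with earlier results of these data known. DMSO and Ponatinib were compared in R 4.3.3 by the quasi-likelihood test of edgeR 4.0.16, after filterByExpr and TMM scaling, with a prior count of 0.125 and Benjamini-Hochberg adjustment, and called means an adjusted p under 0.05. The standard errors are the absolute log2 fold change divided by the square root of the F statistic of that test. Each knockdown was compared with shCtrl by the ratio of TMM-normalized CPM and called past 2-fold. Log2 ratios over many genes had 0.5 counts added. Intervals and the limit of 3 counts cover counting error only. TPM used GENCODE 44 exon lengths on GRCh38. Named genes are the 9 members, ABL1, ABL2, list genes called with a fold over 2, list genes past 2-fold in all 3 knockdowns with at least 100 counts, and the 3 nearest genes. A few genes that this rule or the marker lists would name are not reported here. Where 5 or fewer genes of a list were called, and for LRP1, MRC2 and ENO1, names were added after values were seen. Samples sharing a repeat number did not deviate together (r = -0.02 over 9421 genes), so they were not treated as pairs. Replicates differed by more than sampling noise (chi-square per degree of freedom, 1.40 for DMSO and 2.92 for Ponatinib). Scripts were tested on simulated data. Alternatives included DESeq2 1.42.0, other size factors and filters, the replicate block and leaving out each sample.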

Additional observations from a re-analysis of the deposited data

How the results depend on the processing

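Precision was limited by 2 samples per group after Ponatinib and by 1 per group in the knockdowns, where no replicate spread exists. The number of the 9 genes called after Ponatinib was 7 with other size factors, other filters, DESeq2, a fit of all 8 samples and the replicate block. Leaving out 1 sample leaves 1 in a group, and the genes called were then not always these 7. The log2 fold change then ran from 0.21 to 0.84 for MMP2, from -0.37 to -0.18 for TIMP1 and from -0.15 to -0.11 for TIMP2. By fold change over 2 with unadjusted P under 0.05, 2 of the 9 genes were called, with 2 lower. List genes called numbered 29, or 22 to 36 on leaving out 1 sample, 29 with the replicate block, 23 with DESeq2 and 11 by the fold rule. Of all genes 4917 were called, 2800 to 5744 on leaving out 1 sample, 2600 with DESeq2, 878 by the fold rule and 4984 with the replicate block. Because samples share only a repeat number, the block is given here alone, and it changed no call among the 9 genes.

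In each knockdown 2 of the 9 genes were past 2-fold under every scaling tried. Past 1.5-fold were 6, 6 and 6 with ABL1 shRNA, ABL2 shRNA and both. The share of all genes past 1.5-fold was not taken. Fits of all 8 samples assumed that the lone samples vary like the DMSO and Ponatinib pairs. With ABL1 shRNA they gave log2 ratios of -2.14 for MMP2 and 1.10 for ADAM19 in edgeR, and -2.13 and 1.10 in DESeq2. Because that spread is assumed, counts of genes called by these fits are left out. The log2 ratio of PLAT with ABL2 shRNA was -0.03, and 0.0178 when scaled by library size alone.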
